A study of Homo sapiens with 24 samples.

Results

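ALDH1A3 and 9 further genes of the retinoic acid pathway (ALDH1A1, ALDH1A2, CYP26A1, CYP26B1, RARA, RARB, RARG, CRABP2 and DHRS3) were followed in T-47D cells, an established luminal breast cancer line, treated with heregulin (HRG) after silencing of the Rac exchange factor P-Rex1. ALDH1A3 was chosen by measured values, because its HRG response differed between the 2 P-Rex1 RNAi duplexes, and the other genes were listed with it as members of the same pathway. A gene was read from the probe sets that the platform annotation pairs with its symbol alone. Of the 10 symbols, 9 had such a probe set, and these 9 genes hold 10 of the 28536 probe sets on the array. The only RARA probe set is also paired with BCOR and was not analysed here. ALDH1A3 has 2 probe sets, of which the brighter was used unless the other is named.

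The 24 Affymetrix Human Gene 1.0 ST arrays fall into 8 groups of 3 biological replicates. Cells were transfected with P-Rex1 RNAi #1, with P-Rex1 RNAi #2 or with a non-target duplex (NTC), or were parental cells, and each was given HRG at 20 ng/ml or PBS vehicle for 6 h. All groups were serum starved before treatment, and the silencing was transient, so the RNAi cells are transfected pools rather than clones. Values are log2 expression after RMA, a method that summarises the probes of a probe set, and a difference of 1 on this scale is a 2-fold difference. Levels are comparable between arrays for 1 probe set but not between probe sets. In RNA from bulk cultures, fewer expressing cells and less RNA per cell cannot be told apart.

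Retinoic acid is made from vitamin A. Retinol dehydrogenases turn retinol into retinal, aldehyde dehydrogenases of the ALDH1A family oxidise retinal to retinoic acid, and DHRS3 takes retinal back to retinol. CRABP2 carries retinoic acid to the nucleus, where the receptors RARA, RARB and RARG bind DNA with an RXR partner, and the cytochrome P450 enzymes CYP26A1 and CYP26B1 break it down. RARB, CYP26A1 and DHRS3 are known retinoic acid target genes. ALDH1A3 is known in breast cancer as a main source of the aldehyde dehydrogenase activity used to sort stem-like tumour cells.

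Array medians lay between 6.04 and 6.18, and 4 arrays (parental vehicle 3, NTC HRG 3, RNAi #1 vehicle 2 and RNAi #2 HRG 3) stood apart on the second principal component, which held 11.6% of the variance. PREX1, the silenced gene, was lower than in the mean of NTC and parental cells on every RNAi array of the same treatment. Without HRG the difference was -1.52 with #1 and -1.51 with #2, and with HRG it was -0.97 with #1 and -0.77 with #2. Mean PREX1 was itself lower with HRG than with vehicle, at 9.55 against 10.60 in parental and 9.45 against 10.42 in NTC cells. With #1 it was 8.53 against 8.99, and with #2 8.73 against 9.001. The smaller differences with HRG thus went with lower control levels, not with higher PREX1 in the RNAi cells. The luminal markers KRT8, KRT18, KRT19, EPCAM, CDH1 and GATA3 were brighter than at least 97.3% of probe sets, and ESR1 than 85.4%. Of 5 leukocyte markers, PTPRC, CD3E and MS4A1 were among the dimmest 24.2% of probe sets and CD14 was brighter than 37.4%. CD68 was brighter than 55.2%, and was higher with HRG by 0.92 in NTC and 0.72 in parental cells. The summed log2 level of the 5 was 23.4 to 24.1 with HRG and 22.5 to 22.7 with vehicle in NTC cells, and 23.3 to 23.8 with HRG and 22.1 to 23.2 with vehicle in parental cells. Of the 5, CD68 alone was called for HRG in NTC and parental cells, and the part of this sum in the results was not tested. Of the fibroblast, endothelial and basal markers, none was called in these 2 comparisons. At the adjusted p alone (limma), the basal marker KRT14 (0.36, adjusted p = 0.0062) and the fibroblast marker COL1A1 (0.26, adjusted p = 0.018) were higher in NTC cells. There 31.2% of all probe sets passed, and neither marker passed in parental cells. KRT14 was brighter than 52.3% of probe sets and COL1A1 than 66.1%, and the other measured markers of these 3 cell types than at most 45.9%. ESR1, the oestrogen receptor, fell with HRG by 1.09 in NTC and by 0.98 in parental cells.

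Upstream sequences of ALDH1A3 and DHRS3, the members called for HRG, and of the known retinoic acid targets RARB and CYP26A1 are shown because retinoic acid receptors bind pairs of a short hexamer upstream of their targets. RefSeq promoter windows (GRCh38.p14) were found for all 10 genes, 19 windows in all because some genes have several starts (4 for RARB, 3 for DHRS3, 2 for CYP26A1). For RARB and CYP26A1 the window with the most hexamers is printed, and for DHRS3 the window without a hexamer. The 250 bases before each start were searched on both strands for the hexamer AGGTCA (the usual form) or one of its variants, GGTTCA, or else AGTTCA, or else GGGTCA, and for direct repeats of any of these with a spacer of 1, 2 or 5 bases. In the lines below, printed 5′ to 3′ on the strand of the gene, capitals mark every hexamer found on either strand.
ALDH1A3, chr15:100879581-100879830, plus strand: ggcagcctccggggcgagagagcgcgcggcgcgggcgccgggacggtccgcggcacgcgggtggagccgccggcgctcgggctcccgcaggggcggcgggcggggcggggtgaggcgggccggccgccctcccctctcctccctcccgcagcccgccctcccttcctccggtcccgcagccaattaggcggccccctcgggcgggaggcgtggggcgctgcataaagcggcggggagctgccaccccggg
DHRS3, chr1:12618211-12618460, minus strand: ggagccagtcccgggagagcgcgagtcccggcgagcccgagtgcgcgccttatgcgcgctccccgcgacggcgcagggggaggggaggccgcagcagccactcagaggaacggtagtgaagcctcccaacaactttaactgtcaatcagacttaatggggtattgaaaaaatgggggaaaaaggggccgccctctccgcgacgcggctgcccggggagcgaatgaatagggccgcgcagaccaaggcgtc
RARB, chr3:25428013-25428262, plus strand: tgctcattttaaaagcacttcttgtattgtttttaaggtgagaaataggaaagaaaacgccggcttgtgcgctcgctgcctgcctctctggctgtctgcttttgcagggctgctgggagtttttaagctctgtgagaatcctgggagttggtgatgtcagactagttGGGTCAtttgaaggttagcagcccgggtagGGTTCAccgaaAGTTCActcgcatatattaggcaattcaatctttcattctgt
CYP26A1, chr10:93073643-93073892, plus strand: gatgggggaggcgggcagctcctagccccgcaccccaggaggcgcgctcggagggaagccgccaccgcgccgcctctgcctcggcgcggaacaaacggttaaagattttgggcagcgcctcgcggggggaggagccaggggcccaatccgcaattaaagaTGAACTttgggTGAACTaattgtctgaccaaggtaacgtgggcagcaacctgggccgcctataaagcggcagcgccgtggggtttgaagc
The ALDH1A3 window, its single one, and the DHRS3 window shown held none of the 4 hexamers, and the other 2 DHRS3 windows held 1 each. The RARB window held 3, of which GGTTCA is followed after 5 bases by AGTTCA, as a direct repeat 53 to 37 bases before the start. The CYP26A1 window held a direct repeat with the same spacer on the opposite strand, 90 to 74 bases before the start. The windows not printed held no direct repeat. The other RARB windows held 0, 1 and 1 hexamers, the other CYP26A1 window 0 and the CRABP2 window 1. The RARA windows held 2, 0 and 0, the ALDH1A2 windows 1 and 0, and those of ALDH1A1, CYP26B1 and RARG 0. A hexamer was present in 33.8% of the 35116 promoter windows of this length, a direct repeat with a spacer of 5 in 0.074%, with a spacer of 1 in 0.0968% and with a spacer of 2 in 0.0313%. None of the members' windows held a repeat with a spacer of 1 or 2. These are matches of letters, and the arrays do not show which of the starts a gene uses in T-47D cells.

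HRG raised ALDH1A3 and lowered DHRS3 in NTC and in parental cells. RARB was lower and CRABP2 higher at the adjusted p in both, and ALDH1A1 was higher in NTC cells, all by less than the fold threshold, while ALDH1A2, RARG and both CYP26 genes passed neither criterion. A gene was called changed at an adjusted p under 0.05 (limma, Benjamini-Hochberg over 21042 probe sets) and a fold change over 1.5, which is 0.585 on the log2 scale. By this rule 2 of 9 members were called in NTC cells, where 6.01% of all probe sets were, and 2 of 9 in parental cells, where 5.27% were. In each case 1 member rose and 1 fell. At the adjusted p alone, 5 of 9 members passed in NTC cells (ALDH1A3, CRABP2 and ALDH1A1 higher, DHRS3 and RARB lower) against 31.2% of all probe sets, and 4 of 9 passed in parental cells (the same genes without ALDH1A1) against 30.8%. At a 2-fold threshold ALDH1A3 alone remained, against 1.27% of probe sets in NTC and 1.12% in parental cells. All these counts include ALDH1A3, which was chosen by HRG responses in the same data, so they are not free of that choice. The median log2 change of the 9 members was 0.07 in NTC and -0.04 in parental cells, against 0.03 and -0.03 for all probe sets tested.

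Of the enzymes that make retinoic acid, ALDH1A3 was the member that changed most with HRG in these control cells. In NTC cells its log2 level was 9.45, 9.36 and 9.57 with HRG, against 7.84, 7.87 and 7.74 with vehicle. In parental cells it was 9.56, 9.51 and 9.86 with HRG, against 7.83, 7.82 and 7.87 with vehicle. All HRG arrays lay above all vehicle arrays of the same cells, by more than 1 log2 unit at the nearest pair. The response was 1.64 ± 0.09 in NTC cells, or 3.12-fold (SE, adjusted p = 5.1e-12), and 1.81 ± 0.09 in parental cells, or 3.49-fold (SE, adjusted p = 1.8e-12). The gene was chosen on its response in the RNAi arrays rather than on these arrays, but with earlier results of these data known. A gene picked for a differing HRG response is also likely to be one that responds to HRG. The fit covered the RNAi arrays too, so the p-values in NTC and parental cells are not independent of the choice. Without HRG, NTC and parental cells differed by -0.02 (adjusted p = 0.99).

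In the RNAi cells, whose arrays chose the gene, the values are a description. With RNAi #1 ALDH1A3 was 9.02, 8.95 and 9.19 with HRG, against 7.65, 7.49 and 7.62 with vehicle. With RNAi #2 it was 8.74, 8.62 and 8.82 with HRG, against 8.24, 7.997 and 8.02 with vehicle. HRG and vehicle arrays did not overlap with either duplex, but the gap was narrow with #2. The log2 change was 1.47 (95% interval 1.29 to 1.65) with #1 and 0.64 (0.46 to 0.83) with #2, which is 85.3% and 37.3% of the mean change of NTC and parental cells, 1.72. A smaller response with #2 was not particular to ALDH1A3. Of all probe sets, HRG called 3.67% with #1 and 1.73% with #2, against 6.01% in NTC and 5.27% in parental cells (adjusted p under 0.05 in limma and over 1.5-fold). With #2 the response was smaller than in the controls by 1.08 on the log2 scale (-1.08, interval -1.30 to -0.86), and with #1 the difference was -0.25 (-0.48 to -0.03). Between the duplexes, #2 minus #1 was -0.83 (-1.08 to -0.57). This difference chose the gene, so its size may be overstated. That interval, and those against the controls, are no test.

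**Figure D1:**
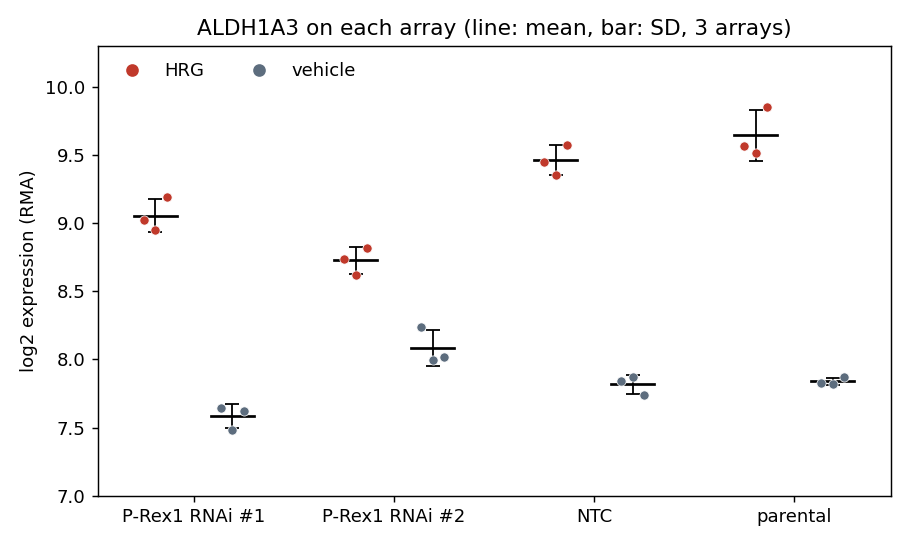
Log2 expression of ALDH1A3 on each of the 24 arrays, by cell group, with HRG (red) left of vehicle (blue-grey); horizontal lines are means and bars are SD of 3 arrays. HRG means run between 8.73 with RNAi #2 and 9.64 in parental cells, and vehicle means between 7.58 with RNAi #1 and 8.08 with RNAi #2.

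The smaller change with #2 came from both ends of the comparison. With HRG, ALDH1A3 averaged 9.05 with #1 and 8.73 with #2, against 9.46 in NTC and 9.64 in parental cells. With vehicle, it averaged 7.58 with #1 and 8.08 with #2, against 7.82 in NTC and 7.84 in parental cells. Relative to the mean of the controls, #2 was thus 0.83 lower with HRG (-0.83, interval -0.98 to -0.67) and 0.26 higher without it (0.10 to 0.41), whereas #1 was lower in both conditions, by -0.50 (-0.66 to -0.34) with HRG and -0.24 (-0.40 to -0.09) without. Ordered by mean level, the groups ran RNAi #1 vehicle, NTC vehicle, parental vehicle, RNAi #2 vehicle, RNAi #2 HRG, RNAi #1 HRG, NTC HRG and parental HRG. Single arrays of NTC and parental cells overlapped with vehicle and again with HRG, and no other neighbours in this order shared a range.

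The second ALDH1A3 probe set did not follow the first. In NTC cells it was 6.13, 6.37 and 6.25 with HRG, against 6.18, 6.09 and 6.37 with vehicle, with overlapping arrays. In parental cells it was 6.09, 5.91 and 5.92 with HRG, against 6.32, 6.21 and 6.41 with vehicle, a change of -0.34 (adjusted p = 0.0072), under the fold threshold and opposite in sign to the brighter probe set. The annotation pairs this second probe set with a single transcript record and the brighter one with several. In the RNAi cells its change was -0.16 with #1 and -0.22 with #2.

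The other enzymes of this step showed no comparable change. ALDH1A1, the family member most studied in stem cells, lay below the 25% quantile of its own array on all 24 arrays. In NTC cells it was 3.69, 3.68 and 3.84 with HRG, against 3.50, 3.56 and 3.58 with vehicle, a change of 0.19 (adjusted p = 0.046). The change was 0.14 (adjusted p = 0.21) without the 4 arrays that stood apart and 0.14 (adjusted p = 0.22) without NTC HRG 3 alone. In parental cells its change was 0.04 (interval -0.11 to 0.19). ALDH1A2, which acts chiefly in the embryo, changed by 0.07 (-0.09 to 0.22) in NTC and 0.03 (-0.13 to 0.18) in parental cells, and by -0.09 with either duplex.

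**Figure D2:**
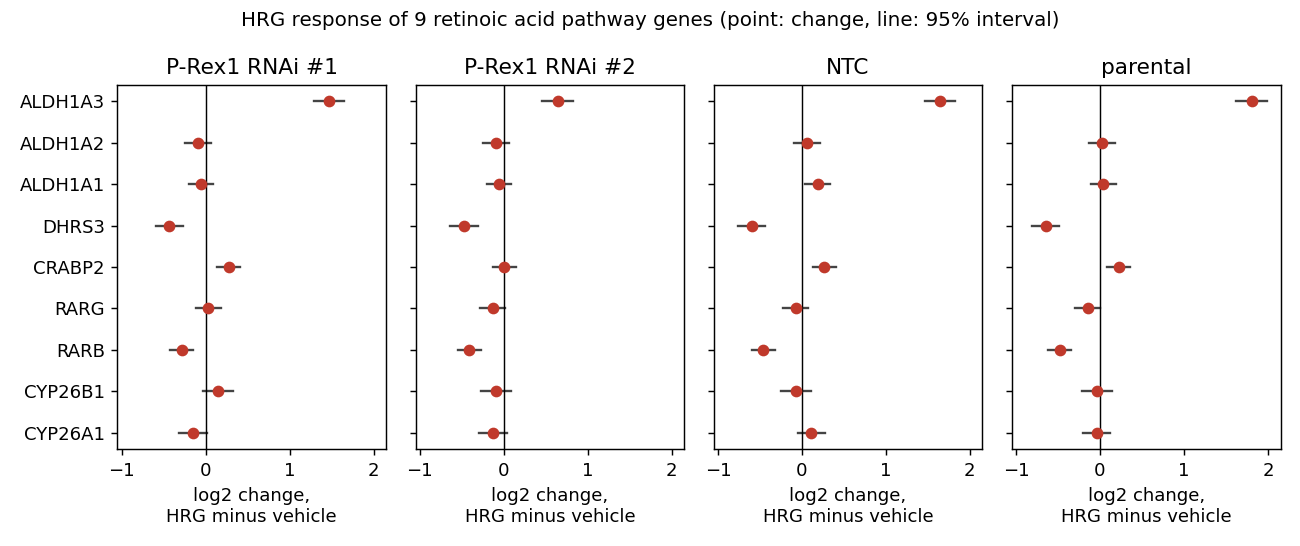
Log2 change with HRG (HRG minus vehicle, horizontal axis) of the 9 measured genes in RNAi #1, RNAi #2, NTC and parental cells; points are changes and lines are 95% intervals. ALDH1A3 lies at 1.47, 0.64, 1.64 and 1.81, and DHRS3 and RARB lie below 0 in all 4 panels.

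DHRS3, the reductase that returns retinal to retinol, moved the other way. In NTC cells it was 6.89, 6.94 and 7.15 with HRG, against 7.40, 7.70 and 7.68 with vehicle. In parental cells it was 7.09, 7.02 and 6.93 with HRG, against 7.67, 7.55 and 7.77 with vehicle. Every HRG array lay below every vehicle array of its cells. The log2 change was -0.60 ± 0.08 in NTC cells (SE, adjusted p = 2.8e-06) and -0.65 ± 0.08 in parental cells (SE, adjusted p = 1.1e-06), 1.51-fold and 1.57-fold decreases close to the threshold. In NTC cells DHRS3 fell below the fold threshold, at -0.54 to -0.57, without NTC vehicle 2 or 3 or NTC HRG 1 or 2.

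With the duplexes DHRS3 decreased with HRG at the adjusted p but by less than 1.5-fold. With RNAi #1 it was 6.94, 7.12 and 7.01 with HRG, against 7.48, 7.45 and 7.43 with vehicle, a change of -0.43 (adjusted p = 0.00022). With RNAi #2 it was 7.20, 7.26 and 7.19 with HRG, against 7.71, 7.68 and 7.67 with vehicle, a change of -0.47 (adjusted p = 0.00016). HRG and vehicle arrays were again fully apart. The responses were 69.4% (#1) and 76.0% (#2) of the controls' mean, and neither difference passed the test, at 0.19 (interval -0.01 to 0.39, adjusted p = 0.28) for #1 and 0.15 (-0.05 to 0.35, adjusted p = 0.52) for #2. Among HRG-treated cells DHRS3 was higher with #2 than in the controls by 0.21 (adjusted p = 0.039), where 15% of all probe sets passed this adjusted p. Its adjusted p lay between 0.012 and 0.14 over the alternatives tried.

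RARB, the receptor whose own gene is a retinoic acid target, was lower with HRG in every group of cells. In NTC cells it was 4.84, 4.78 and 4.72 with HRG, against 5.18, 5.20 and 5.32 with vehicle. In parental cells it was 4.86, 4.66 and 4.64 with HRG, against 5.22, 5.16 and 5.24 with vehicle. These ranges did not overlap, although RARB is a dim probe set, brighter than 33.4% of all. The change was -0.46 ± 0.06 in NTC (SE, adjusted p = 7.7e-06) and -0.48 ± 0.06 in parental cells (SE, adjusted p = 4.2e-06), a 1.37-fold and a 1.40-fold decrease.

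The decrease of RARB was seen with both duplexes. With RNAi #1 it was 4.65, 4.72 and 4.69 with HRG, against 5.10, 4.89 and 4.93 with vehicle, a change of -0.29 (adjusted p = 0.0019). With RNAi #2 it was 4.67, 4.70 and 4.58 with HRG, against 5.04, 5.07 and 5.06 with vehicle, a change of -0.41 (adjusted p = 0.00010). The response differed from that of the controls by 0.18 (interval 0.02 to 0.35, adjusted p = 0.22) with #1 and 0.06 (-0.10 to 0.22, adjusted p = 0.81) with #2. Without HRG, 0.665% of all probe sets passed the adjusted p for #1 against the controls, at any fold change. RARB was among them, lower with #1 by -0.25 (adjusted p = 0.040), which is under the fold threshold and so not a call. Its adjusted p lay between 0.014 and 0.36 over the alternatives, and was 0.36 without RNAi #1 vehicle 2 and 0.32 without the 4 arrays that stood apart. With #2 the same difference was -0.16 (adjusted p = 0.15).

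**Figure D3:**
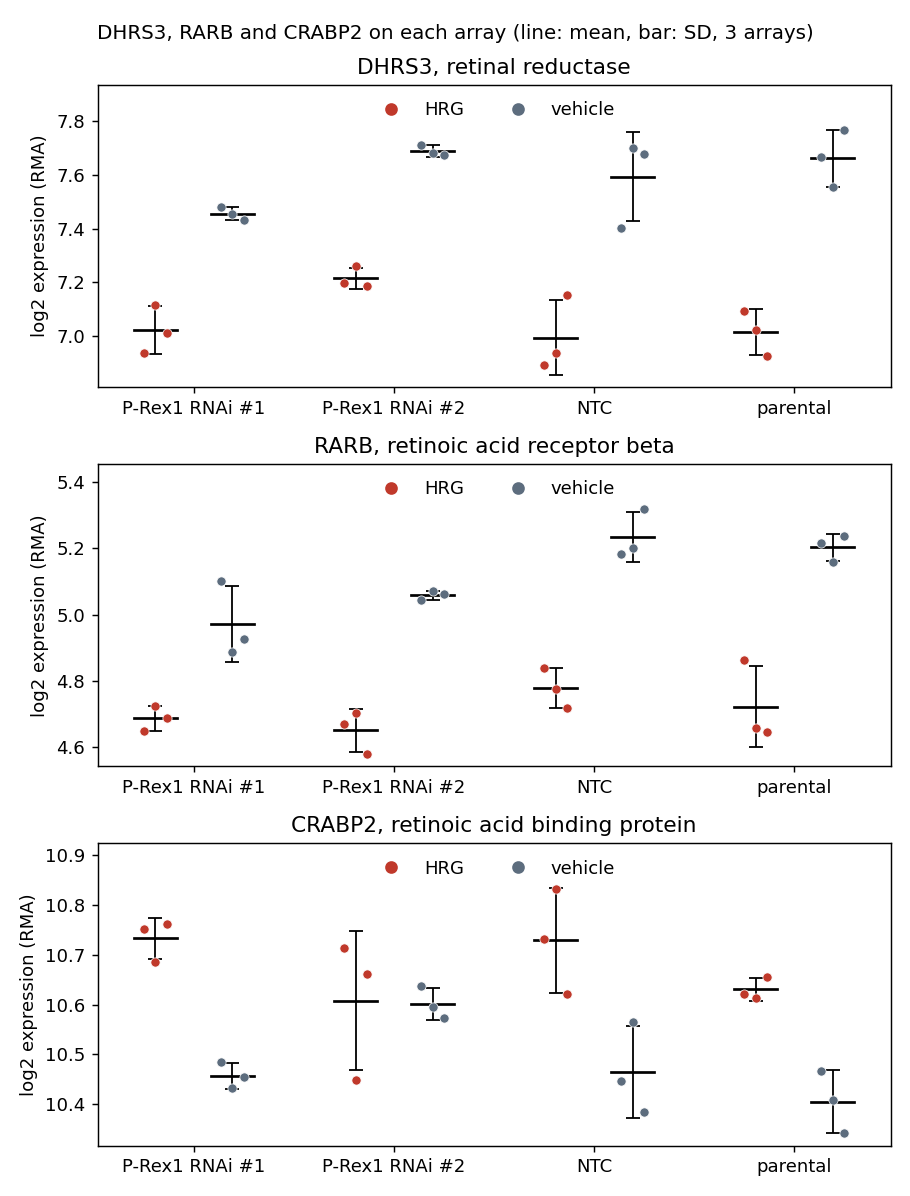
Log2 expression of DHRS3 (top), RARB (middle) and CRABP2 (bottom) on each array, by cell group, with HRG (red) left of vehicle (blue-grey); lines are means and bars are SD of 3 arrays. HRG arrays lie below vehicle arrays for DHRS3 and RARB in all 4 groups of cells, and above them for CRABP2 except with RNAi #2, where they overlap.

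CRABP2, which delivers retinoic acid to its receptors, increased slightly with HRG in NTC, parental and RNAi #1 cells. In NTC cells it was 10.73, 10.83 and 10.62 with HRG, against 10.45, 10.56 and 10.38 with vehicle, a change of 0.26 (adjusted p = 0.0031). In parental cells it was 10.62, 10.61 and 10.66 with HRG, against 10.47, 10.41 and 10.34 with vehicle, a change of 0.23 (adjusted p = 0.011, and 0.0044 to 0.056 over the alternatives). With RNAi #1 it was 10.75, 10.69 and 10.76 with HRG, against 10.48, 10.43 and 10.45 with vehicle, a change of 0.28 (adjusted p = 0.0030). These changes are 1.17-fold to 1.21-fold. With RNAi #2 CRABP2 was 10.71, 10.45 and 10.66 with HRG, against 10.64, 10.60 and 10.57 with vehicle, and its change was 0.01 (interval -0.13 to 0.14). The response with #2 minus that of the controls was -0.24 (interval -0.41 to -0.07, adjusted p = 0.11), and #2 minus #1 was -0.27 (-0.46 to -0.08, adjusted p = 0.48), so neither difference passed the test.

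RARG, the retinoic acid receptor known for its role in skin, and both CYP26 genes had no call in any comparison. RARG changed with HRG by -0.07 in NTC cells (interval -0.22 to 0.08) and -0.15 in parental cells (-0.29 to 0.0038), and by 0.03 with #1 and -0.13 with #2. CYP26A1, the breakdown enzyme that is a classical retinoic acid target, changed by 0.11 (-0.05 to 0.27) in NTC and -0.04 (-0.20 to 0.12) in parental cells, and by -0.15 with #1 and -0.13 with #2. CYP26B1 changed by -0.07 (-0.25 to 0.11) in NTC and -0.04 (-0.22 to 0.14) in parental cells, and by 0.14 with #1 and -0.09 with #2. The CYP26 probe sets were dim, brighter than 30.3% (CYP26A1) and 38.5% (CYP26B1) of all probe sets.

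With ALDH1A3 left out, 0 of 8 members were called for HRG with RNAi #1 (3.67% of all probe sets) or RNAi #2 (1.73%). At the adjusted p alone 3 of 8 (DHRS3, RARB and CRABP2) passed with #1, against 27.3% of probe sets, and 2 of 8 (DHRS3 and RARB) with #2, against 15.8%. For the difference in response from the controls, 0 of 8 were called with #1 (0.171%) and 0 of 8 with #2 (0.779%), and for #2 minus #1 there were 0 of 8 (0.0618%). At an unadjusted p under 0.05, 1 of the 8 passed in each of these 3 differences, where 18.9% of all probe sets passed for #1, 15.6% for #2 and 7.49% for #2 minus #1. The duplexes also called 0 of 8 members relative to the controls without HRG, against 0.0285% of probe sets for #1 and 0.181% for #2, and 0 of 8 with HRG, against 0.185% for #1 and 1.01% for #2. At an unadjusted p under 0.05 and without HRG, 4 of 8 members passed with #1 (11.8% of all probe sets) and 2 of 8 with #2 (13.7%). With HRG 1 of 8 passed with #1 (19.5%) and 1 of 8 with #2 (25%). In NTC against parental cells without HRG 0 of 9 were called, as was 0% of all probe sets, and 0 members passed an unadjusted p under 0.05, where 5.72% of probe sets did. All comparisons with the controls use the same NTC and parental arrays.

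The genes most like ALDH1A3 over the 24 arrays were taken among 461 probe sets of other single genes whose group means spanned at least 1 log2 unit. They were ANXA3 (Pearson r = 0.987), an annexin, TM4SF1 (0.985), a tetraspanin-like surface protein, KRT7 (0.983), a simple epithelial keratin, ST3GAL1 (0.978), a sialyltransferase, and UGDH (0.978), which makes UDP-glucuronate. Their log2 changes with HRG were 0.82 to 1.46 with RNAi #1 and 0.42 to 0.76 with RNAi #2, against 1.06 to 1.72 in NTC and 1.00 to 1.53 in parental cells. The arrays share their treatment, so these values describe likeness and carry no test. The 5 genes were picked over all 24 arrays, the RNAi arrays among them, so their smaller change with #2 follows from the choice. Among the members, r with ALDH1A3 was -0.868 for DHRS3, -0.777 for RARB and 0.755 for CRABP2, and lay between -0.213 and 0.168 for the remaining 5.

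Around the members, 89 further genes of vitamin A metabolism, of receptor partners and of known retinoic acid targets were listed, of which 76 had a single-symbol probe set. HRG called 5 of the 76 in NTC cells and 5 in parental cells, with 4 higher and 1 lower in each, a share near that of all probe sets (6.01% in NTC and 5.27% in parental cells). These were RBP4, SDR16C5, GPRC5A and TGM2, which rose, and TNFSF10, which fell. The median change over the 76 was 0.00 in NTC and -0.07 in parental cells. With RNAi #1 and with RNAi #2 2 of the 76 were called, SDR16C5 and GPRC5A, both higher, against 3.67% of all probe sets with #1 and 1.73% with #2. The 5 genes were picked by their response in NTC and parental cells, which tilts a comparison of the duplexes with those same responses toward a smaller response with the duplex, so these differences are given with their intervals as a description.

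SDR16C5, an epithelial retinol dehydrogenase that makes retinal, was the called gene of the retinol dehydrogenase list. Its log2 level lay between 8.05 and 8.19 with HRG and between 7.07 and 7.14 with vehicle in NTC cells, and between 8.13 and 8.37 with HRG and between 6.94 and 7.17 with vehicle in parental cells. The change was 1.02 ± 0.07 in NTC (SE, adjusted p = 2.0e-10) and 1.13 ± 0.07 in parental cells (SE, adjusted p = 4.2e-11). It was 0.99 with #1 and 0.67 with #2. The response minus that of the controls was -0.08 (interval -0.26 to 0.09) with #1 and -0.40 (-0.58 to -0.23) with #2. The level of SDR16C5 with #2 minus that of the controls was -0.91 with HRG (interval -1.03 to -0.79) and -0.51 without it (-0.63 to -0.38). Of the 16 retinol dehydrogenases and retinal reductases measured, 1 was thus called in NTC and in parental cells. Of all probe sets, 6.01% (NTC) and 5.27% (parental) were, so a single call in this list is near that share.

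RBP4, which carries retinol in the blood, rose by 1.03 ± 0.14 in NTC (SE, adjusted p = 5.6e-06) and 0.88 ± 0.14 in parental cells (SE, adjusted p = 4.0e-05). Its levels were 6.08 to 6.55 with HRG and 5.15 to 5.37 with vehicle in NTC cells, and 5.89 to 6.31 with HRG and 5.07 to 5.53 with vehicle in parental cells. The change was 0.50 (adjusted p = 0.011) with #1 and 0.24 (adjusted p = 0.33) with #2, and the response minus that of the controls was -0.45 (interval -0.81 to -0.09) with #1 and -0.72 (-1.08 to -0.36) with #2. Among the 11 genes of retinol uptake and storage, RBP4 was the one called in NTC and in parental cells. Of all probe sets, 6.01% (NTC) and 5.27% (parental) were called.

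Among 20 known retinoic acid targets with a probe set, 2 rose and 1 fell in NTC and in parental cells, against calls for 6.01% and 5.27% of all probe sets. GPRC5A, named for its induction by retinoic acid, rose by 1.63 in NTC and 1.62 in parental cells, by 1.67 with #1 and by 1.06 with #2. Its response minus that of the controls was 0.05 (interval -0.31 to 0.41) with #1 and -0.56 (-0.92 to -0.20) with #2. TGM2, a transglutaminase induced by retinoic acid in many cell types, rose by 0.71 in NTC and 0.73 in parental cells, and changed by 0.32 with #1 and 0.34 with #2. Its response minus that of the controls was -0.40 (interval -0.63 to -0.17) with #1 and -0.38 (-0.61 to -0.15) with #2. TNFSF10, the death ligand TRAIL, fell by 0.76 in NTC and by 0.60 in parental cells (adjusted p = 0.00041), and in parental cells its change was between -0.49 and -0.58 without parental vehicle 1 or 2 or parental HRG 3, below the fold threshold. It changed by -0.33 with #1 and -0.29 with #2. The TNFSF10 response minus that of the controls was 0.35 (interval 0.05 to 0.66) with #1 and 0.39 (0.09 to 0.69) with #2. The remaining 17 had no call, and the median of the list was 0.11 in NTC and 0.03 in parental cells, against 0.03 and -0.03 for all probe sets.

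The 16 aldehyde dehydrogenases outside the ALDH1A family had no call in NTC or parental cells, although many shifted slightly. Of all probe sets, 6.01% (NTC) and 5.27% (parental) were called. At the adjusted p alone 8 were lower and 2 higher in NTC cells, and 10 were lower and 2 higher in parental cells, where 31.2% (NTC) and 30.8% (parental) of all probe sets passed in either direction. The 2 higher ones, named after their values were seen, were the mitochondrial enzyme ALDH1B1 (0.53 in NTC and 0.51 in parental cells) and ALDH18A1 (0.17 in both), which acts in proline synthesis. The median change of the 16 was -0.19 in NTC and -0.25 in parental cells, against 0.03 and -0.03 for all probe sets. Of the 12 measured receptor partners and coregulators, 0 were called in NTC or parental cells, against the same 6.01% and 5.27% of all probe sets. At the adjusted p 7 were lower and 1 higher in NTC cells and 7 were lower in parental cells, against the same 31.2% and 30.8%. The median change of the 12 was -0.22 in both.

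**Figure D4:**
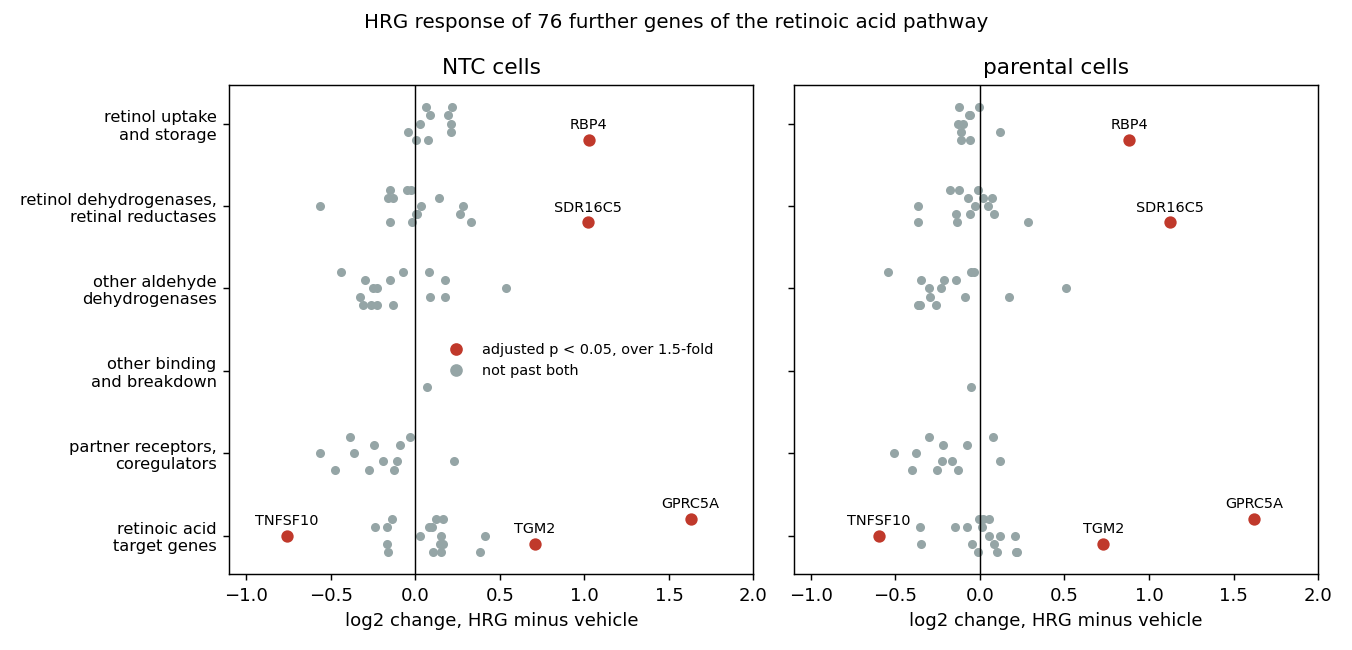
Log2 change with HRG (HRG minus vehicle, horizontal axis) of 76 further pathway genes, 1 point per gene, by list (points are spread vertically within a list for legibility), in NTC (left) and parental cells (right); red points passed the adjusted p and 1.5-fold. The 5 called genes are the same in both panels, RBP4, SDR16C5, GPRC5A and TGM2 to the right of 0 and TNFSF10 to the left.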

How the data were processed

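Total RNA from 24 T-47D cultures was hybridised to Affymetrix Human Gene 1.0 ST arrays. The authors normalised the arrays with RMA (in simpleaffy, per the study's methods; version not given in the sources used here) and deposited log2 expression values, with columns matched to samples by name. RMA pulls dim probe sets toward background, so small changes there are understated. Arrays carry no counts, and 3 arrays a group limit the precision. Gene symbols came from the platform annotation, in which 19292 probe sets carry a single symbol and 1750 more than one, while 7494 are unnamed here. The 21042 with a symbol were fitted in limma 3.58.1 (R 4.3.3) with 1 mean per group over all 24 arrays, and Benjamini-Hochberg adjustment ran over all of them. The authors' Rank Products test, which gives no interaction, was not run. Controls are the mean of NTC and parental cells. Each gene was read from its brightest single-symbol probe set. From each wider list up to 4 called genes with the largest change were named, and 5 genes by correlation with ALDH1A3. The fit was tested on simulated data. Alternatives were a replicate block, other probe set filters, variance models, scaling, arrays, controls and fold thresholds. The members and gene lists were chosen with earlier results of these data known, and ALDH1A3 on its response with the RNAi duplexes, so its values there carry no test. The comparison of members' letters used RefSeq promoters of GRCh38.p14. The labels call the replicates biological, without saying whether cultures were processed on separate days.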

Additional observations from a re-analysis of the deposited data

Results flagged for a closer look

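The test of a difference in HRG response itself was read in 3 comparisons, each duplex against the controls and #2 against #1. It was read for 13 genes, 8 members without ALDH1A3 and the 5 wider genes called. At the adjusted p it passed for 2 genes, RBP4 and SDR16C5, both with #2 against the controls. RBP4 also passed the fold threshold there, as 0.779% of all probe sets did, and SDR16C5 did not. The share of all probe sets at the adjusted p alone was not counted for this difference. The RBP4 response was smaller with RNAi #2 than in the mean of NTC and parental cells, the difference being -0.72 on the log2 scale (SE 0.17, adjusted p = 0.019, limma). The SDR16C5 response was also smaller with RNAi #2, the difference being -0.40 (SE 0.08, adjusted p = 0.0066). For RNAi #1 neither difference passed the test. Between the duplexes, #2 minus #1 was -0.27 for RBP4 (interval -0.68 to 0.15, adjusted p = 0.79, limma). For SDR16C5 it was -0.32 (-0.52 to -0.12, adjusted p = 0.45, limma), so the duplexes did not differ by this test for either gene. Both genes were picked by their HRG response in NTC and parental cells, RBP4 without a call in either duplex. That same response is what the duplexes are set against. The p-values against the controls are thus tilted toward a smaller response and carry no weight as support.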

How the results depend on the processing

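Over the alternatives no called value changed sign, and 75 of 1792 uncalled values did. Without a fold threshold the members called for HRG were 3 with RNAi #1, 2 with RNAi #2, 5 in NTC and 4 in parental cells, and 1 each for RNAi #1 without HRG and RNAi #2 with HRG, and the wider genes called were 30 of 76 in NTC and 32 of 76 in parental cells, against 31.2% and 30.8% of all probe sets. At 2-fold there was 1 of 9 members in NTC and 1 of 9 in parental cells. Of the 76 wider genes there were 3 in NTC and 2 in parental cells. Of all probe sets, 1.27% passed in NTC and 1.12% in parental cells. With 1 array left out in turn, the members called in NTC cells were 1 to 2, DHRS3 being lost at -0.54 to -0.57 without NTC vehicle 2 or 3 or NTC HRG 1 or 2. TNFSF10 in parental cells was below the fold threshold with arrays centred on their medians (-0.58). Same-numbered replicates correlated between -0.0532 and 0.388 in their deviations from group means, over 0.1 in 10 of 12 pairs. Differently numbered replicates of the same cells correlated between -0.352 and 0.165. Same-numbered arrays thus tended to vary together. The main fit did not use the numbers, and the replicate block did. With the replicate block 2 of 9 members were called in NTC and 2 of 9 in parental cells, and 0 in each other comparison. Of the 76 wider genes, 5 were called in NTC and 5 in parental cells. The main fit called 6.01% of all probe sets in NTC and 5.27% in parental cells. Without the 4 arrays that stood apart, an alternative chosen after seeing the data, ALDH1A3 changed by 1.42 with #1, 0.60 with #2, 1.59 in NTC and 1.82 in parental cells. The dimmer of the ALDH1A3 probe sets moved most with the control used, its response with #2 minus NTC being -0.25 and minus parental 0.12. Leaving out the dimmest 25% of probe sets removed ALDH1A1 and no other member. The largest-range probe set of ALDH1A3 is the brightest, so that alternative adds no value.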
